A study of Mus musculus with 6 samples.

Results

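The 10 genes described here encode the oxygen-dependent enzymes that modify and cross-link collagen: the prolyl 4-hydroxylase alpha subunits *P4ha1*, *P4ha2* and *P4ha3*, the lysyl hydroxylases *Plod1*, *Plod2* and *Plod3*, and the lysyl oxidases *Lox*, *Loxl1*, *Loxl2* and *Loxl3*. They were taken by symbol from a raw count table of 54532 genes, in which all 10 have reads, and all 10 were among the 19372 genes abundant enough to be tested. RNA-seq was performed on 3 *Smyd1-KO* and 3 WT mouse hearts at embryonic day 9.5, each from a single embryo, to find the genes whose transcript levels depend on SMYD1, a histone methyltransferase of striated muscle. *Smyd1-KO* embryos carry a null mutation of *Smyd1* in every cell and descend from heterozygous mice of the Jackson Laboratory, WT embryos carry none, and the labels name no treatment for either group. The hearts were taken whole, so cardiomyocytes, endocardium, cushion mesenchyme, epicardium and blood are measured together, and fewer cells of a type cannot be told apart from less RNA per cell.

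Collagen chains are modified while they fold in the endoplasmic reticulum. Prolyl 4-hydroxylase, a tetramer of alpha subunits and the protein disulfide isomerase P4HB, hydroxylates proline so that the triple helix is stable at body temperature. Lysyl hydroxylases hydroxylate lysine, which fixes the kind of cross-link that can form, and lysyl oxidases oxidize lysine outside the cell to start the cross-links themselves. The hydroxylases consume molecular oxygen and 2-oxoglutarate and need iron and ascorbate, and the lysyl oxidases are copper enzymes that also consume oxygen. Several of these genes, *P4ha1*, *P4ha2*, *Plod2* and *Lox* among them, are known targets of hypoxia-inducible factors in other cells. In the embryonic heart, fibrillar collagen is laid down in the cushions that become the valves and septa, and basement membrane collagen surrounds myocardium and endocardium.

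The sum of gene counts per heart ranged from 48627825 to 64217529, and the share of mitochondrially encoded counts was 0.622% to 0.758% in *Smyd1-KO* and 1.15% to 1.34% in WT hearts. The targeted gene, *Smyd1* (chromosome 6, 71213940 to 71322233, reverse strand of GRCm38), was read at 101, 222 and 206 CPM (counts relative to library size, with TMM factors) in the *Smyd1-KO* hearts numbered 1, 2 and 3, against 414, 379 and 270 CPM in the WT hearts numbered 1, 2 and 3. Every *Smyd1-KO* heart lay below every WT heart, but the difference missed the threshold (log2 fold change -1.01, standard error 0.300, adjusted *P*=0.0973 by edgeR), and *Smyd1* reads remained in all 3 *Smyd1-KO* hearts. The cardiac marker *Tnnt2* was read in all 6 hearts, at 1415 ± 504.9 CPM in the mutants and 1638 ± 481.3 CPM in the controls (SD, n=3).

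Of the 10 genes, 6 were upregulated in *Smyd1-KO* hearts: *Lox*, *P4ha2*, *P4ha1*, *Plod2*, *Loxl2* and *Plod1*, in the order of their fold changes, from 7.27-fold to 1.70-fold. A gene was called when edgeR gave it an adjusted *P* under 0.05 and a log2 fold change beyond 0.5 in either direction. By this rule 2.86% of all tested genes were upregulated and 1.42% downregulated. None of the 10 was downregulated, with 0 at an unadjusted *P* under 0.05 by edgeR and 0 called by DESeq2. Of all 19372 tested genes, 4857 had an unadjusted *P* under 0.05 by edgeR, in either direction. *Loxl3* was higher in each *Smyd1-KO* heart than in each WT heart but missed the threshold by edgeR. For *P4ha3*, *Plod3* and *Loxl1* the hearts of both genotypes overlapped. Every *Smyd1-KO* heart lay above every WT heart in 7 of the 10 genes, against 15.9% of all tested genes, and below in 0, against 15.5%. The median log2 fold change was 1.005 over the 10 genes and -0.00255 over all tested genes.

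**Figure D1:**
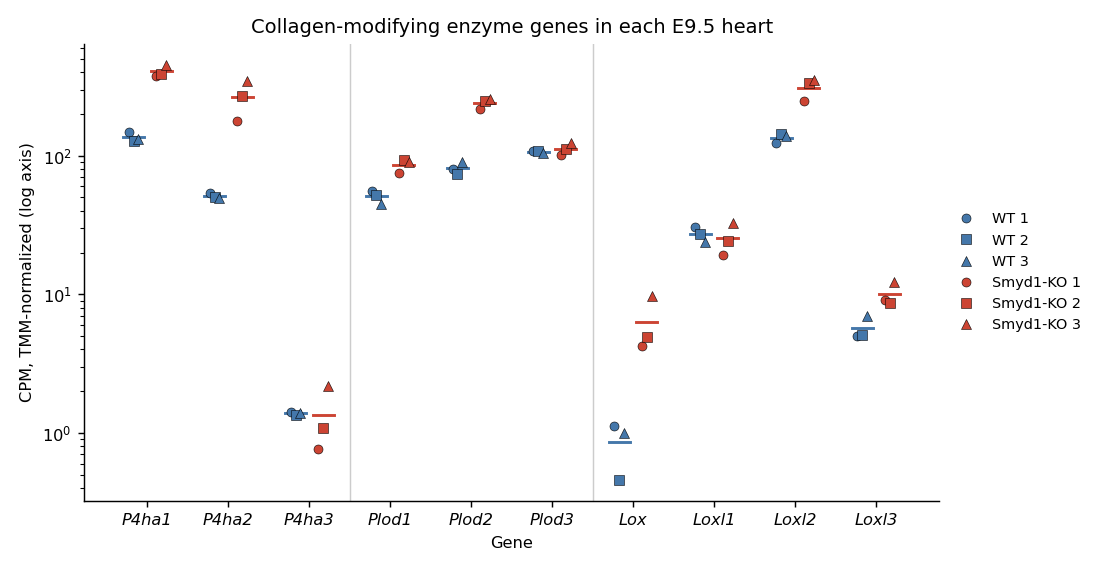
Expression of the 10 enzyme genes in each heart, in TMM-normalized CPM on a log axis, with blue symbols for WT hearts, red symbols for *Smyd1-KO* hearts and a line at each group's mean. The *Smyd1-KO* hearts stand clear of the WT hearts for 7 genes, and the groups overlap for *P4ha3*, *Plod3* and *Loxl1*.

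The count of 6 depended on the setting. DESeq2, the tool of the study's methods, called 7 of the 10, *Loxl3* being the addition, where it called 5.98% of all genes upregulated. With the replicate number as a block, edgeR called *P4ha1*, *Plod2* and *Loxl2*, 3 of the 10, where it called 0.289% of all genes. Leaving out WT heart 2 or WT heart 3 also left 3 called, *P4ha1*, *P4ha2* and *Plod2*. Over all genes, 89 of 19842 were called upregulated without WT heart 2 and 130 of 19826 without WT heart 3.

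The sequence just before a RefSeq transcription start (GRCm38.p6) was at hand for 5 of the 10 genes, and 4 of these windows of 250 bases are printed because they set 3 upregulated genes beside a gene of the same families that was not. Capitals mark ACGTG and GCGTG, the core to which hypoxia-inducible factors bind, searched on both strands, so that CACGT and CACGC are the same motifs read on the other strand. No 2 of the matches overlap. *P4ha1* is at chr10:59323046-59323295 and *P4ha2* at chr11:54100674-54100923, both on the forward strand. The *P4ha2* window lies inside the span of the gene given below, which begins at 54100095, and precedes a start further downstream. *P4ha3* is at chr7:100285270-100285519 on the forward strand and *Plod1* at chr4:147936777-147937026 on the reverse strand.
P4ha1: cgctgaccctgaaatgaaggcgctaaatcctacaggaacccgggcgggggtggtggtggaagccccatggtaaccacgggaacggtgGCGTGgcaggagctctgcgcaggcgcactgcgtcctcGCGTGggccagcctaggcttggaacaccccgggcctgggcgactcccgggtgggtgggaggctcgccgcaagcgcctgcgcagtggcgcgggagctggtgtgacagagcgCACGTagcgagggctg
P4ha2: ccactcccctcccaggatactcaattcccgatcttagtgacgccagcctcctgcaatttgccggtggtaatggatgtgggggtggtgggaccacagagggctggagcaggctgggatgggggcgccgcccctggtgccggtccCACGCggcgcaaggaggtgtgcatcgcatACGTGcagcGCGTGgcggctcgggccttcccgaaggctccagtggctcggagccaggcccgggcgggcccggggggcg
Plod1: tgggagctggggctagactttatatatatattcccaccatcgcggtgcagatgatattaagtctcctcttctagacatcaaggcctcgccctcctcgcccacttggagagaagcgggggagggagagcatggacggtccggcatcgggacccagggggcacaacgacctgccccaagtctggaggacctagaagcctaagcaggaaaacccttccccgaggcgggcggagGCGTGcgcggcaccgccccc
P4ha3: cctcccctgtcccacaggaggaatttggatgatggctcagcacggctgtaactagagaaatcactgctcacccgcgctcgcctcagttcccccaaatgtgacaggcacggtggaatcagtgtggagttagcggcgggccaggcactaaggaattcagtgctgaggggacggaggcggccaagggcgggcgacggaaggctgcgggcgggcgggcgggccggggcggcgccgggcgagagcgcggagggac
The window of *P4ha1* holds 3 matches, which begin 163, 126 and 16 bases before the start. The window of *P4ha2* also holds 3, at 107, 78 and 69 bases, and that of *Plod1* holds 1, at 20 bases. No match was found for *P4ha3* in these letters. The window of *Plod3*, a gene that was not called and whose groups overlapped, holds 4. Of its 250 bases, 208 lie over exons of the neighboring gene *Znhit1*. Binding to any of these matches was not tested. Of 32851 windows of the same length in the table, 38.6% hold at least 1 match and 6.58% hold 3 or more, and the 5 windows are rich in G and C (55.6% to 70.0%).

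The prolyl 4-hydroxylase alpha subunits carry the catalytic site of the enzyme. *P4ha1* (ENSMUSG00000019916, chromosome 10, 59323296 to 59373304) was read at 376, 390 and 453 CPM in the *Smyd1-KO* hearts numbered 1, 2 and 3, against 148, 127 and 131 CPM in the WT hearts numbered 1, 2 and 3. The lowest *Smyd1-KO* heart thus had 2.55 times the level of the highest WT heart. The WT mean was 135 ± 10.9 CPM and the *Smyd1-KO* mean 406 ± 41.1 CPM (SD, n=3), a 3.00-fold difference (log2 fold change 1.59, standard error 0.109, adjusted *P*=0.000996 by edgeR). Its call held whichever heart was left out.

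*P4ha2* (ENSMUSG00000018906, chromosome 11, 54100095 to 54131665), the other main catalytic subunit, rose further. Its levels were 177, 268 and 345 CPM in the *Smyd1-KO* hearts numbered 1, 2 and 3, against 53.9, 50.1 and 49.3 CPM in the WT hearts numbered 1, 2 and 3. The WT hearts had a coefficient of variation of 4.84%, whereas *Smyd1-KO* heart 3 had 1.95 times the level of *Smyd1-KO* heart 1. EdgeR gave a log2 fold change of 2.37 with a standard error of 0.229 (adjusted *P*=0.00408). *P4ha2* was called whichever heart was left out, and its adjusted *P* under the replicate block was 0.0561 by edgeR.

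*P4ha3* (ENSMUSG00000051048, chromosome 7, 100285520 to 100319699), the remaining alpha subunit, was scarce in every heart. It was read at 0.761, 1.08 and 2.19 CPM in the *Smyd1-KO* hearts numbered 1, 2 and 3, against 1.41, 1.35 and 1.40 CPM in the WT hearts numbered 1, 2 and 3. These values rest on 37 to 125 counts per heart. *Smyd1-KO* hearts 1 and 2 lay below the WT hearts and *Smyd1-KO* heart 3 above them (log2 fold change -0.04, standard error 0.381, adjusted *P*=0.959 by edgeR).

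Levels of different genes can be compared only per length of transcript, so CPM were divided by the exonic length in kilobases (RPKM). Summed over the 3 alpha subunits, expression was 141 ± 23.3 RPKM in *Smyd1-KO* and 41.6 ± 3.04 RPKM in WT hearts (SD, n=3), or 3.40 times as high. *P4ha2* made up 23.6%, 31.1% and 33.3% of this sum in *Smyd1-KO* hearts 1, 2 and 3, and 19.2%, 20.4% and 19.6% in WT hearts 1, 2 and 3. Its share was higher in each *Smyd1-KO* heart than in each WT heart, by 9.60 percentage points on average (two-sided exact permutation test, *P*=0.1, the smallest that 3 hearts against 3 allow). *P4ha1* held 70.4% ± 5.19 of the sum in *Smyd1-KO* and 79.2% ± 0.638 in WT hearts. These shares depend on the length used: with the longest transcript in place of all exons, *P4ha2* held 45.2% ± 6.20 in *Smyd1-KO* and 32.9% ± 0.822 in WT hearts, and in *Smyd1-KO* heart 3 it was level with *P4ha1* (112.8 and 112.1 RPKM).

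The beta subunit gene *P4hb* encodes an abundant chaperone that also works outside this enzyme. It was upregulated, by less than *P4ha1* and *P4ha2*, from 624 ± 34.5 to 958 ± 87.1 CPM (SD, n=3; log2 fold change 0.62, standard error 0.102, adjusted *P*=0.0210 by edgeR). Its call was lost under the replicate block (adjusted *P*=0.123 by edgeR) and without *Smyd1-KO* heart 3 (adjusted *P*=0.0601 by edgeR). It was also lost without *Smyd1-KO* heart 2, WT heart 2 or WT heart 3. Per length, the summed alpha subunits came to 38.2%, 43.1% and 45.0% of *P4hb* in *Smyd1-KO* hearts 1, 2 and 3, and to 19.4%, 18.7% and 19.0% in WT hearts 1, 2 and 3. The ratio of alpha to beta transcripts was thus higher in every *Smyd1-KO* heart (two-sided exact permutation test, *P*=0.1, the smallest possible).

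Of the lysyl hydroxylases, PLOD2 is the one known for the lysines of the telopeptides at the chain ends, from which stable cross-links form. *Plod2* (ENSMUSG00000032374, chromosome 9, 92542223 to 92608428) was read at 216, 250 and 258 CPM in the *Smyd1-KO* hearts numbered 1, 2 and 3, against 79.5, 74.3 and 90.5 CPM in the WT hearts numbered 1, 2 and 3. The groups were far apart, with 2.38 times the highest WT level in the lowest *Smyd1-KO* heart. EdgeR gave a log2 fold change of 1.57 with a standard error of 0.111 (adjusted *P*=0.00110), close to that of *P4ha1*. Its call held whichever heart was left out, and with the block. It shares 346 exonic bases with *Gm38391* on the other strand, which has 52 to 111 counts per heart.

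*Plod1* and *Plod3*, which encode the lysyl hydroxylases of the helical part of the chain and, for PLOD3, an enzyme that also adds sugars to hydroxylysine, differed from *Plod2*. *Plod1* (ENSMUSG00000019055, chromosome 4, 147909753 to 147936767) was read at 74.6, 93.5 and 90.8 CPM in the *Smyd1-KO* hearts numbered 1, 2 and 3, against 55.5, 52.4 and 44.6 CPM in the WT hearts numbered 1, 2 and 3. The groups did not overlap, and *Plod1* was called (log2 fold change 0.76, standard error 0.120, adjusted *P*=0.0187 by edgeR), though when 1 heart was left out the call held in only 2 of 6 fits. The calls were lost without *Smyd1-KO* heart 2, *Smyd1-KO* heart 3, WT heart 2 or WT heart 3, with adjusted *P*-values by edgeR of 0.0565 to 0.0994. *Plod3* (ENSMUSG00000004846, chromosome 5, 136987019 to 136996648) was read at 101, 112 and 124 CPM in the *Smyd1-KO* hearts numbered 1, 2 and 3, against 108, 108 and 104 CPM in the WT hearts numbered 1, 2 and 3. The WT hearts lay inside the range of the *Smyd1-KO* hearts (log2 fold change 0.08, standard error 0.0916, adjusted *P*=0.644 by edgeR). *Plod3* shares 529 exonic bases with *Znhit1* on the other strand, which has 1127 to 1526 counts per heart, and the strand setting of the counting is not given in the sources used here.

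The make-up of this family changed more than that of the alpha subunits. *Plod2* held 54.5%, 54.5% and 53.9% of lysyl hydroxylase RPKM in *Smyd1-KO* hearts 1, 2 and 3, and 31.4%, 30.3% and 36.2% in WT hearts 1, 2 and 3. *Plod3* held the largest share in each WT heart (51.1% ± 1.50, SD, n=3) and 30.2% ± 0.876 in *Smyd1-KO* hearts, where *Plod2* held the largest. The share of *Plod2* was 21.7 percentage points higher in *Smyd1-KO* hearts and that of *Plod3* fell by 20.9 (two-sided exact permutation tests, each *P*=0.1, the smallest possible). Shares of a family add up to a fixed whole, so these tests are not independent, and the level of *Plod3* itself overlapped between the groups. The share of *Plod1* overlapped between the groups (15.5% ± 0.689 and 16.2% ± 1.78; *P*=0.6 by the same exact test). Summed over the family, expression was 82.4 ± 8.08 RPKM in *Smyd1-KO* and 46.3 ± 0.767 RPKM in WT hearts.

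**Figure D2:**
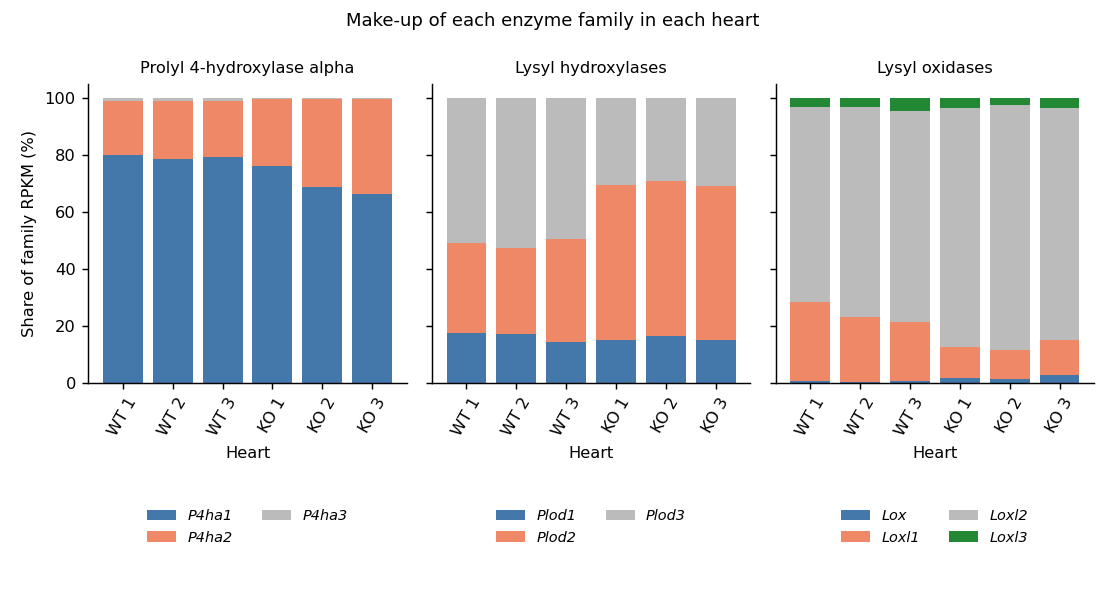
Make-up of each enzyme family in each heart, as the share of each gene in the family's summed RPKM (bars stacked to 100%), for WT hearts 1 to 3 and *Smyd1-KO* hearts 1 to 3. *Plod2* takes 53.9% to 54.5% of its family in the *Smyd1-KO* hearts and 30.3% to 36.2% in the WT hearts, and *Loxl2* is the main lysyl oxidase in all 6 hearts.

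Among the lysyl oxidases, *Lox*, the founding member of the family, had the largest fold change of the 10 genes and the lowest level in WT hearts. *Lox* (ENSMUSG00000024529, chromosome 18, 52516067 to 52529867) was read at 4.26, 4.92 and 9.65 CPM in the *Smyd1-KO* hearts numbered 1, 2 and 3, against 1.12, 0.457 and 1.01 CPM in the WT hearts numbered 1, 2 and 3. These values rest on 207, 291 and 551 counts in *Smyd1-KO* hearts 1, 2 and 3, and on 67, 29 and 67 counts in WT hearts 1, 2 and 3. The lowest *Smyd1-KO* heart had 3.79 times the level of the highest WT heart, and hearts of the same genotype differed widely, with a coefficient of variation of 46.9% in *Smyd1-KO* and 41.3% in WT hearts. EdgeR gave a log2 fold change of 2.86 with a standard error of 0.449 (adjusted *P*=0.0187). When 1 heart was left out, *Lox* kept its call in 3 of 6 fits. Without WT heart 1, 2 or 3 its adjusted *P* by edgeR was 0.0513, 0.0804 or 0.0816.

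*Loxl2* encodes the lysyl oxidase that is known for cross-linking collagen IV of basement membranes. *Loxl2* (ENSMUSG00000034205, chromosome 14, 69609068 to 69695834) was read at 247, 335 and 349 CPM in the *Smyd1-KO* hearts numbered 1, 2 and 3, against 123, 144 and 138 CPM in the WT hearts numbered 1, 2 and 3. All *Smyd1-KO* hearts were higher than all WT hearts, heart 1 the least so. EdgeR gave a log2 fold change of 1.20 with a standard error of 0.145 (adjusted *P*=0.00835). Its call was lost without WT heart 2 (adjusted *P*=0.0544 by edgeR) or WT heart 3 (adjusted *P*=0.0512 by edgeR).

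*Loxl3*, a lysyl oxidase required for palate and spine formation, is the gene nearest to the threshold. *Loxl3* (ENSMUSG00000000693, chromosome 6, 83034173 to 83052562) was read at 9.11, 8.59 and 12.3 CPM in the *Smyd1-KO* hearts numbered 1, 2 and 3, against 4.99, 5.12 and 7.01 CPM in the WT hearts numbered 1, 2 and 3. The lowest *Smyd1-KO* heart was 1.23 times the highest WT heart. With edgeR, its log2 fold change of 0.81 with a standard error of 0.212 was not called (adjusted *P*=0.0706), and DESeq2 gave an adjusted *P* of 0.00349. *Loxl3* shares 535 exonic bases with *Htra2* on the other strand, which has 2523 to 3561 counts per heart against 297 to 703 for *Loxl3*, and how reads in the shared bases were assigned was not tested.

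*Loxl1*, which is known for the maintenance of elastic fibers, was read at 19.3, 24.3 and 32.6 CPM in the *Smyd1-KO* hearts numbered 1, 2 and 3, against 30.4, 27.3 and 23.7 CPM in the WT hearts numbered 1, 2 and 3 (ENSMUSG00000032334, chromosome 9, 58287738 to 58313186). The *Smyd1-KO* hearts spanned the WT range on both sides (log2 fold change -0.10, standard error 0.196, adjusted *P*=0.798 by edgeR). Within the family, the share of *Loxl1* fell from 23.8% ± 3.47 to 11.1% ± 1.19 of the summed RPKM (SD, n=3), and that of *Loxl2* was 83.8% ± 2.11 in *Smyd1-KO* and 72.1% ± 3.18 in WT hearts. Both shares separated the genotypes without overlap (two-sided exact permutation tests, each *P*=0.1, the smallest possible). As shares of a fixed whole they are not independent, and the lower share of *Loxl1* is not a lower level. *Lox* held 1.87% ± 0.598 of the sum in *Smyd1-KO* and 0.527% ± 0.232 in WT hearts, so that its large fold change added little to the total of 68.6 ± 12.8 and 34.7 ± 1.36 RPKM.

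Ordered by RPKM in WT hearts, the genes ran from *P4ha1* (32.9 ± 2.65, SD, n=3) through *Loxl2* (25.0 ± 1.95), *Plod3* (23.6 ± 0.527), *Plod2* (15.1 ± 1.54), *Loxl1* (8.23 ± 1.01), *P4ha2* (8.19 ± 0.397) and *Plod1* (7.51 ± 0.830) to *Loxl3* (1.24 ± 0.246), *P4ha3* (0.442 ± 0.00920) and *Lox* (0.181 ± 0.0746). *Loxl2* and *Plod3* were not separated beyond their spread, nor were *Loxl1*, *P4ha2* and *Plod1*. In *Smyd1-KO* hearts *P4ha1* (98.8 ± 9.98 RPKM) and *Loxl2* (57.4 ± 10.3 RPKM) came first. *Plod2* (44.7 ± 4.20 RPKM) and *P4ha2* (42.2 ± 13.5 RPKM) came before *Plod3* (24.9 ± 2.60 RPKM) there, and *P4ha3* (0.429 ± 0.239 RPKM) took the last place from *Lox* (1.31 ± 0.616 RPKM). The hearts of *Loxl2* and *Plod2* overlapped in this order, as did those of *Plod2* and *P4ha2* and those of *Loxl3* and *Lox*. The order was not the same with the length of the longest transcript, by which *P4ha1* (33.5 ± 2.70 RPKM), *Plod3* (32.6 ± 0.726), *Loxl2* (25.4 ± 1.98), *Plod2* (22.2 ± 2.26) and *P4ha2* (16.7 ± 0.809) led in WT hearts. By that length *Loxl2* and *Plod3* did not overlap in WT hearts, nor did *P4ha2*, *Plod1* and *Loxl1*, whereas *P4ha1* and *Plod3* did. In *Smyd1-KO* hearts it put *P4ha2* (86.1 ± 27.6 RPKM) and *Plod2* (65.9 ± 6.18 RPKM) before *Loxl2* (58.4 ± 10.4 RPKM).

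The 3 *Smyd1-KO* hearts were not alike. Heart 3 had the highest level of the *Smyd1-KO* hearts in 9 of the 10 genes and heart 1 the lowest in 9 of 10. The median over the 10 genes, relative to the WT mean, was 0.77, 1.09 and 1.24 on the log2 scale in *Smyd1-KO* hearts 1, 2 and 3. Of 9 markers of cushion mesenchyme, 4 were highest of all hearts in the same heart, whereas *Sox9*, *Prrx1* and *Prrx2* were lowest there among the *Smyd1-KO* hearts. The 2 markers with the largest fold changes, chosen after their values were seen, were *Postn* and *Lum*. *Postn*, a matricellular protein gene of cushion mesenchyme, was read at 150, 27.0 and 618 CPM in the *Smyd1-KO* hearts numbered 1, 2 and 3, against 39.5, 7.04 and 36.9 CPM in the WT hearts numbered 1, 2 and 3. *Lum*, a proteoglycan gene of fibroblasts, was read at 32.2, 4.21 and 142 CPM in the *Smyd1-KO* hearts numbered 1, 2 and 3, against 6.50, 1.02 and 5.93 CPM in the WT hearts numbered 1, 2 and 3. *Smyd1-KO* heart 2 lay within the WT range for 6 of the 9 markers, these 2 included, and above every WT heart for *Twist2*, *Sox9* and *Dcn*. The 12 cardiomyocyte markers summed to 9412, 19390 and 19555 CPM in *Smyd1-KO* hearts 1, 2 and 3. In WT hearts 1, 2 and 3 their sums were 20912, 19478 and 12512 CPM. Heart 1 was thus lowest there, but not in the sum of the 9 cushion markers (743, 577 and 1293 CPM in *Smyd1-KO* hearts 1, 2 and 3). Whether these differences bear on the enzymes was not tested. Without *Smyd1-KO* heart 3, *P4ha1*, *P4ha2*, *Plod2*, *Lox* and *Loxl2* were still called and *Plod1* was not, at log2 fold changes of 1.50 for *P4ha1*, 1.52 for *Plod2* and 1.11 for *Loxl2*.

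**Figure D3:**
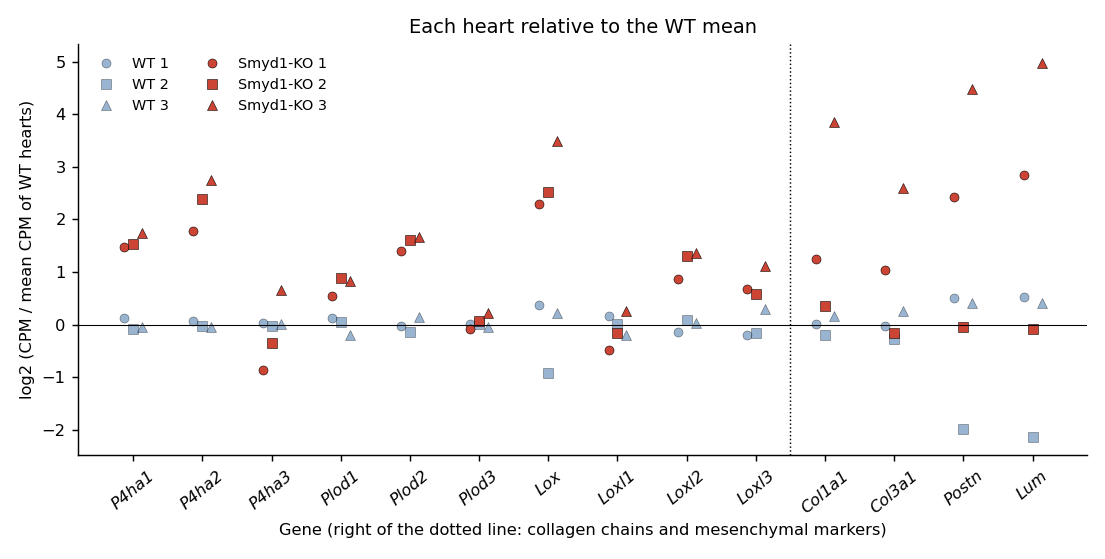
Each heart relative to the mean of the WT hearts, as the log2 ratio of CPM, for the 10 enzyme genes and, right of the dotted line, for the collagen genes *Col1a1* and *Col3a1* and the mesenchymal markers *Postn* and *Lum*. *Smyd1-KO* heart 3 (red triangle) stands far above the other hearts for the last 4 genes, while *P4ha1*, *P4ha2* and *Plod2* are raised in all 3 *Smyd1-KO* hearts.

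The other marker lists moved with genotype in part. Counts at an unadjusted *P* under 0.05 are to be read beside the 4857 of 19372 tested genes that passed it by edgeR, in either direction. Of 9 cushion and mesenchymal markers, 0 were called by edgeR, 5 were higher at an unadjusted *P* under 0.05 and DESeq2 called 3. Their sums, 577 to 1293 CPM in the mutants against 483 to 677 CPM in the controls, overlapped. *Smyd1-KO* heart 2 (577 CPM) lay below WT hearts 1 and 3 (677 and 646 CPM). Of 7 epicardial markers, 0 were called by edgeR and 2 were higher at an unadjusted *P* under 0.05, both of which DESeq2 called (159 to 282 and 125 to 155 CPM). Summed cardiomyocyte markers overlapped between the genotypes (9412 to 19555 and 12512 to 20912 CPM). Of these 12, 0 were called by edgeR. At an unadjusted *P* under 0.05, *Nppa* was higher and *Myh6* lower, and DESeq2 called *Nppa* higher. Summed endothelial markers overlapped too (765 to 1163 and 757 to 928 CPM), with 0 of 10 called by edgeR. At an unadjusted *P* under 0.05, *Kdr*, *Pecam1* and *Egfl7* were higher and the endocardial *Nfatc1* and *Npr3* lower. DESeq2 called *Kdr* higher and *Nfatc1* and *Npr3* lower. So did smooth muscle markers (1681 to 2942 and 1942 to 3473 CPM), with 0 of 5 called by edgeR. *Myh11* was lower at an unadjusted *P* under 0.05 and was called lower by DESeq2. Of 8 erythroid markers 2 were downregulated by edgeR, and their sum was 26.2 to 260 CPM in the mutants against 698 to 941 CPM in the controls. No marker was at 0 in all hearts, and the part of cell composition in the changes of the enzymes was not tested.

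Other genes of the collagen pathway were taken from lists. Of 13 other genes for folding and modifying collagen, 3 were upregulated and 0 downregulated, and their median was 0.15 on the log2 scale. *P3h3* (log2 fold change 0.63, adjusted *P*=0.0431 by edgeR) and *P3h2* (0.61, adjusted *P*=0.0232) belong to the prolyl 3-hydroxylase family, and *P4hb* was the other. *Fkbp14*, a prolyl isomerase gene, followed in size (0.34, adjusted *P*=0.146 by edgeR). *Serpinh1*, the collagen chaperone HSP47, had a log2 fold change of 0.26 (adjusted *P*=0.337 by edgeR), and was chosen for mention after its value was seen. All 3 calls in this list were lost under the replicate block, with adjusted *P*-values by edgeR of 0.107 to 0.134, and also without *Smyd1-KO* heart 2 or 3 or WT heart 2 or 3.

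Of 10 genes for procollagen export and propeptide cleavage, 9 were tested and 0 were called by edgeR or by DESeq2, with 1 higher and 1 lower at an unadjusted *P* under 0.05. The largest differences were those of *Adamts2*, a procollagen N-proteinase (log2 fold change 1.08, adjusted *P*=0.234 by edgeR), *Pcolce* (0.54, adjusted *P*=0.191), *Bmp1*, the procollagen C-proteinase (-0.46, adjusted *P*=0.0841), and *Adamts14* (-0.35, adjusted *P*=0.245). *Tll2* was too low to be tested. Of 6 other genes of matrix cross-linking, 0 were called by edgeR, 1 was higher at an unadjusted *P* under 0.05 and DESeq2 called the same gene, *Fmod* (log2 fold change 1.87, adjusted *P*=0.102 by edgeR). *Loxl4*, the lysyl oxidase outside the 10 genes, was at 5 to 20 counts per heart and overlapped between the genotypes.

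Of 19 chains that these enzymes act on, 18 of collagen and elastin, 0 were upregulated and 1 was downregulated by edgeR, and their median was 0.32 on the log2 scale. At an unadjusted *P* under 0.05, 6 were higher and 1 lower. Over all tested genes, 4857 of 19372 had such a *P* by edgeR, in either direction. For *Col1a1*, *Col6a3*, *Col6a1* and *Col11a1*, 4 of the 19, each *Smyd1-KO* heart lay above each WT heart, against 15.9% of all tested genes. In 1 of the 19 each lay below, against 15.5%. *Col2a1*, the fibrillar collagen of cartilage and cushions, was lower in each *Smyd1-KO* heart (483 ± 80.0 against 844 ± 171 CPM, SD, n=3; log2 fold change -0.80, adjusted *P*=0.0466 by edgeR), and its call was lost whichever heart was left out and under the block (adjusted *P*=0.0756 by edgeR). *Col1a1* was read at 237, 127 and 1431 CPM in the *Smyd1-KO* hearts numbered 1, 2 and 3, against 101, 86.4 and 111 CPM in the WT hearts numbered 1, 2 and 3. A single heart thus set its mean, and its log2 fold change of 2.59 missed the threshold (edgeR, standard error 0.837 and adjusted *P*=0.114). *Col6a3* (2.70, adjusted *P*=0.111 by edgeR), *Col3a1* (1.59, adjusted *P*=0.164) and *Col1a2* (1.36, adjusted *P*=0.186) had the same heart highest. The basement membrane chains *Col4a1* and *Col4a2*, named after their values were seen, had log2 fold changes of 0.06 and 0.05. DESeq2 called 1 of the 19 chains upregulated, *Col11a1*.

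**Figure D4:**
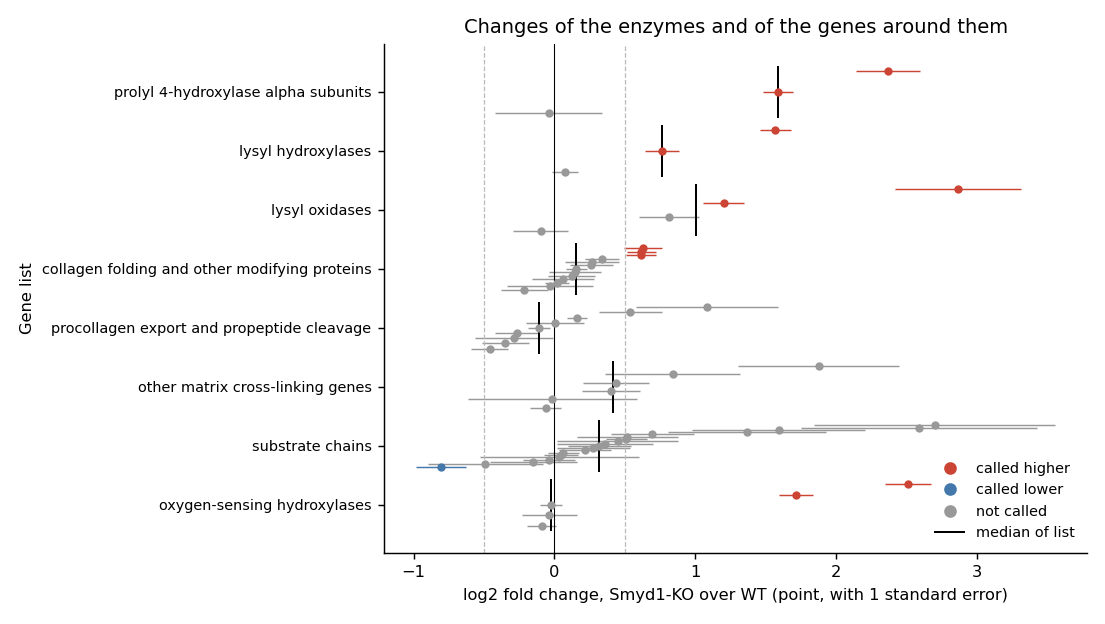
The log2 fold changes of the 3 enzyme families and of 5 lists of related genes, with each gene as a point with 1 standard error, colored by its call with edgeR, a black bar at each list's median and dashed lines at the threshold of 0.5. The called enzymes lie between 0.76 and 2.86, the called genes of collagen folding between 0.61 and 0.63. The called oxygen-sensing hydroxylases lie at 1.71 and 2.51.

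The oxygen-sensing hydroxylases use the same cofactors as the collagen hydroxylases but act on hypoxia-inducible factors. Of 5 such genes, 2 were upregulated and 0 downregulated, namely *Egln3* (log2 fold change 2.51, adjusted *P*=0.000869 by edgeR) and *Egln1* (1.71, adjusted *P*=0.000996). *Egln2* (-0.09), *P4htm* (-0.04) and *Hif1an* (-0.03) were not called (adjusted *P* 0.615, 0.925 and 0.856 by edgeR). As among the collagen enzymes, paralogs of 1 family therefore differed in whether they passed the test. *Egln1* was read at 345, 425 and 421 CPM in the *Smyd1-KO* hearts numbered 1, 2 and 3, against 132, 121 and 111 CPM in the WT hearts numbered 1, 2 and 3.

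Genes with the most similar course over the 6 hearts were sought for 1 member of each family among 8671 other genes whose log2 CPM averaged 4 or more. Likeness was the root mean square difference of log2 CPM, centered on each gene's mean. Nearest to *P4ha1* were *Prelid2* (0.0913), *Egln1* (0.114) and *Slc2a1*, the glucose transporter GLUT1 (0.133). Nearest to *Plod2* were *Ciart* (0.0876), a circadian repressor, *Ccng2* (0.121), a cyclin, and *Pfkfb3* (0.130), which makes the activator of phosphofructokinase. Nearest to *Loxl2* were *Mxi1* (0.0728), an antagonist of MYC, *Khnyn* (0.0928) and *Flt1* (0.0995), the receptor VEGFR1. Their log2 fold changes, from 1.15 to 1.71, follow from their choice by likeness to these 3 genes.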

How the data were processed

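RNA of E9.5 hearts was measured in 3 *Smyd1-KO* and 3 WT samples, grouped by their labels. Whether same-numbered hearts are littermates is not given, and the main test took the hearts as independent. Its *P*-values set the difference between genotypes against the spread between these embryos, and an effect of litter was not tested. The authors selected poly A RNA, sequenced paired-end reads and aligned them to mm10 with STAR in bcbio-nextgen. The raw counts per gene were deposited by the authors as whole numbers without normalization. The counting tool, annotation and strand setting are not given in the sources used here. A second deposited table, of normalized counts, was not used. 0 columns lacked a sample.

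Counts were tested in R 4.3.3 with edgeR 4.0.16 (filterByExpr, TMM, quasi-likelihood test, Benjamini-Hochberg adjustment over all tested genes). The standard error of a log2 fold change is its size over the square root of F. Log2 CPM used a prior count of 2. Gene positions and exonic lengths came from GENCODE M21 (GRCm38), the build of the files. Shares were compared with exact permutation tests. Alternatives were DESeq2 1.42.0, other normalizations, filters and call rules, the replicate block, each heart left out, and, chosen after the data were seen, robust estimation and, for the order of levels, the longest transcript. Tables were made with Python 3.11.15.

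The genes named are the 10 enzymes, *Smyd1*, up to 4 genes with the largest difference of each list and the 3 nearest profiles. The members and lists were chosen with earlier results of these data known. The depth, 48627825 to 64217529 counts per heart, leaves counting error small beside the spread between hearts except for genes of few counts.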

Additional observations from a re-analysis of the deposited data

How the results depend on the processing

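The number of the 10 enzymes called upregulated was 6 by edgeR, 7 by DESeq2, and 6 with RLE or upper-quartile factors, without mitochondrial and erythroid genes, with no filter, with at least 10 counts in every heart, with no limit on the fold change and with robust estimation. It was 4 with glmTreat against 0.5, 3 with the replicate number as a block, and 3 to 6 with each heart left out. None was called downregulated under any of these settings. Of all genes, 555 were upregulated and 275 downregulated by edgeR, against 1126 and 623 by DESeq2, 136 and 18 with glmTreat, and 56 and 3 with the replicate block. With each heart left out the counts ran from 89 to 809 and from 8 to 447. The sign changed only for genes that were not called: *P4ha3*, between -0.58 and 0.24 with each heart left out, had a log2 fold change of 0.24 without *Smyd1-KO* heart 1 and 0.10 without *Smyd1-KO* heart 2, and *Loxl1*, between -0.32 and 0.067, had 0.067 without *Smyd1-KO* heart 1. The cause of these differences was not tested beyond the smaller number of hearts.

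The labels number the hearts within each genotype. Deviations from the genotype's mean correlated at -0.216, -0.054 and -0.182 in the same-numbered pairs 1, 2 and 3, so the numbers were not taken as pairs. Taking differences within same-numbered hearts, the block for the shares, cannot change a mean difference, so only the *P* could change. The mean differences were 9.60 percentage points for *P4ha2*, 21.7 for *Plod2* and 11.7 for *Loxl2* (*P*=0.25 each by exact sign-flip permutation, the smallest possible). Without division by length the differences were 11.3, 20.8 and 8.27 points. With the longest transcript they were 12.3, 21.3 and 11.6 points, the *P4ha2* share itself was 32.9% in place of 19.7% in WT hearts, and the summed alpha subunits came to 55.6% and 23.3% of *P4hb* in place of 42.1% and 19.0%. Depth limits *P4ha3* and *Lox*, which had 37 and 29 counts in their lowest hearts.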
